A study of Mus musculus with 8 samples.

Results

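The S100 family of small calcium-binding proteins was followed in RNA sequencing libraries of mouse adipose-derived stem cells (ADSCs) grown in 2D or in 3D. Its members were taken by gene symbol as S100a1, S100a4, S100a6, S100a8, S100a9, S100a10, S100a11, S100a13, S100a14 and S100a16, which are 10 of the 24346 genes listed for each library. All cultures were primary cells from the gonadal fat of WT male BALB/c mice aged 12 weeks. Cells of mice 2, 3, 4 and 5 made up the 2D side, and Matrigel cultures of mice 1, 4, 5 and 7 the 3D side. Each mouse gave 1 library per culture type, so that 4 libraries stood on each side and mice 4 and 5 appeared on both. The medium and passage of each sequenced culture are not given in the sources used here, and an effect of the medium cannot be told apart from one of the culture form.

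S100 proteins are small acidic proteins, most of them dimers, that bind calcium through a pair of EF hands and then expose a surface that holds partner proteins. Inside cells they act on the cytoskeleton, on membranes through annexins, and on enzymes and transcription factors. Some are also released and act through receptors such as RAGE and TLR4. In cell cultures, S100a4 and S100a6 are known from fibroblasts and other mesenchymal cells, S100a14 from epithelia, and S100a8 and S100a9 from neutrophils and monocytes.

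Before the results, the libraries were checked against their label, which calls all of the cells mesenchymal stem cells. Values below are quantile normalized FPKM (fragments scaled to gene length and to the mapped total), a level that can be set side by side between genes. Summed over 12 stromal markers, the level was 2098 to 4530 FPKM in 2D and 4.78 to 8.71 FPKM in 3D, where Pdgfrb and Dcn were at 0 in every library. Most of the 3D sum was Twist1, at 4.59 to 7.99 FPKM in 3D and 19.3 to 31.6 FPKM in 2D. Summed over 14 epithelial markers, it was 32.0 to 694 FPKM in 2D and 2750 to 3218 FPKM in 3D. The label was therefore not matched by the markers of the 3D libraries. The 2D libraries of mice 3 and 4 stood apart with 511 and 1358 FPKM of 4 mesothelial markers, against 0.543 and 0.352 FPKM in mice 2 and 5, and values without them are given where they change a call, a direction or a called difference by more than 1.5-fold. The depth, estimated from the steps between low values, was 14.5 M to 17.3 M fragments.

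All 10 members lie on chromosome 3 (GRCm38), and the sequences beside some of their starts are shown because they belong to neighbours that did and did not move together. S100a1 runs on the minus strand from 90514392 down to 90511034, and S100a13 starts on the plus strand at 90514435, so that their annotated starts are 0.043 kb apart. S100a4 (90603771 to 90606045) and S100a6 (90612882 to 90624181) follow each other on the plus strand with 6.84 kb between them. S100a11 (93520488 to 93526287) and S100a10 (93555080 to 93564643) lie in a separate block, 2825 kb beyond S100a9. Of the members, 8 were matched by symbol in the RefSeq promoter table (GRCm38.p6). S100a10 and S100a14 were not. The sequences below are the 250 bases before the RefSeq start of S100a4 at chr3:90603520-90603769, of S100a6 at chr3:90612644-90612893 and of S100a11 at chr3:93520246-93520495, all on the plus strand, followed by the 104 bases at chr3:90514331-90514434 on the plus strand between the RefSeq starts of S100a1 and S100a13. Capitals mark matches to the motifs described in the next paragraph.
S100a4: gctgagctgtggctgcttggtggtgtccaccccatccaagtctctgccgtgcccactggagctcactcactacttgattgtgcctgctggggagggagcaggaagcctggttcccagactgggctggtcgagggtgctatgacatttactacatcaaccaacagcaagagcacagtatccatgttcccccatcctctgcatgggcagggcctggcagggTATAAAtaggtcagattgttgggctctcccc
S100a6: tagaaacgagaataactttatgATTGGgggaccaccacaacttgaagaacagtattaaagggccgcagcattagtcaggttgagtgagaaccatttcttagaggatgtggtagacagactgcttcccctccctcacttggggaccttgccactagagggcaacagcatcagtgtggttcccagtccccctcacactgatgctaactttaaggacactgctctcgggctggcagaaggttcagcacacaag
S100a11: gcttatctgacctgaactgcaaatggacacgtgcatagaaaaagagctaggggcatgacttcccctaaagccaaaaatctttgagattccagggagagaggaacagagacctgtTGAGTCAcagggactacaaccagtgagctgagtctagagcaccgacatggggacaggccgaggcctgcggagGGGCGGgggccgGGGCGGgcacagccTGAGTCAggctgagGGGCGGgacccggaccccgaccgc
S100a1 to S100a13: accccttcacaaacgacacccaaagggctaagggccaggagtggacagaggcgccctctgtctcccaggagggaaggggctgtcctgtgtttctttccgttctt

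Letters of 6 known motifs were searched on both strands, and the share of the 32851 windows of this length in the table that hold each motif is given beside it. The TATA box, spelled TATAAA, was in 12.4% of windows, and S100a4 held it with its first base at -31 from the start and S100a8 at -30. The CCAAT box was in 33.8% of windows, and S100a6 held it at -228. The GC box, which is the binding site of Sp1 and is spelled GGGCGG, was in 32.7% of windows. S100a11 held 3 of these, at -64, -52 and -24, S100a9 held 1 at -223, and 1 of the 2 windows of S100a16 held 1 at -30. An AP-1 site, here with the letters TGACTCA, was in 4.5% of windows, and S100a11 held it at -136 and -38. The E-box read by Snail and Zeb proteins, written CACCTG, was in 17.2% of windows, and it was found for S100a9 at -53 and for the other window of S100a16 at -203. The TEAD motif, GGAATG on either strand, was in 12.6% of windows and in none of the members' windows. No 2 of these motifs overlapped in the sequences shown. The stretch between S100a1 and S100a13 held none of the 6 motifs. These matches are descriptions of letters and not of binding.

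The comparison of 3D with 2D cultures asked how growth in Matrigel relates to gene expression in ADSCs. S100a4, S100a6, S100a10 and S100a13 were lower in 3D, by 172-fold for S100a4 and by 2.73-fold to 15.4-fold for the others as ratios of mean levels, while S100a14 and S100a11 were higher. S100a1, S100a8 and S100a16 did not pass the test, and S100a9 was at 0 in every library. Thus 6 of the 9 members tested passed, where 41.5% of the 18862 genes tested did (limma, adjusted p below 0.05 over all genes). Of the members, 4 were lower, where 20.3% of all genes were, and 2 were higher, where 21.2% were. The libraries of the culture types did not overlap for the same 6 members, as for 42.5% of all genes tested. The median fitted difference of the 9 members was -0.93 on the log2 scale, and that of all genes was 0.00. Fitting the mouse as a block left 1 residual degree of freedom, and 0 members passed the adjusted test and 5 had an unadjusted limma p below 0.05. These 5 were S100a4, S100a8, S100a10, S100a13 and S100a14. S100a8 had not passed without the block, and S100a6 and S100a11, which had, were not among them. Over all genes, 0% passed the adjusted test in the block fit and 27.7% the unadjusted one. Only mice 4 and 5, which have both cultures, bear on the difference in that fit. On simulated data with 200 of 18862 genes changed by 2 on the log2 scale and no mouse effect, it called 0 of the 200. The real data differ from this setting, with more genes called without the block and some larger differences. Since 0% of all genes passed with the block in the real data, its adjusted p for single genes, given below, cannot tell a changed gene from an unchanged one. Fewer cells of a type and less RNA per cell cannot be told apart in these bulk libraries.

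**Figure D1:**
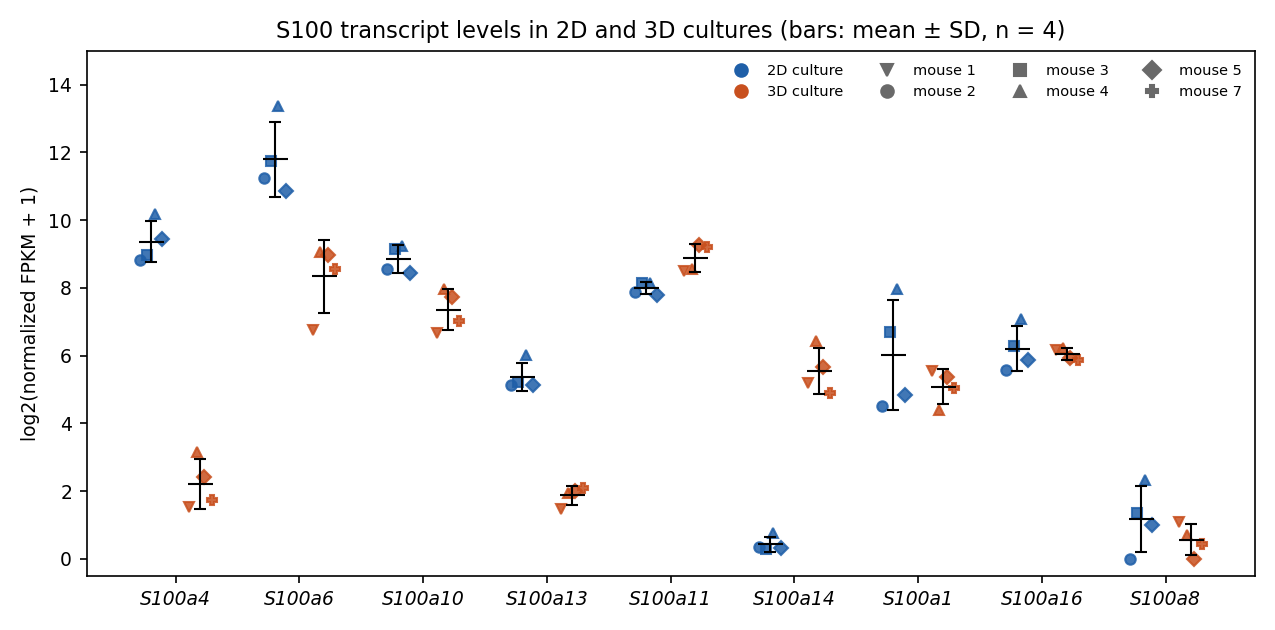
Normalized level of each S100 member (FPKM + 1, log scale) in the 4 2D and 4 3D libraries, with 1 point per library and a line at the group mean. S100a4, S100a6, S100a10 and S100a13 sit lower in every 3D library, S100a14 and S100a11 sit higher, and the points of S100a1, S100a8 and S100a16 overlap.

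S100a4, which binds non-muscle myosin and is known for its part in cell motility, had the largest fall of the family. Its level was 455, 505, 1165 and 694 FPKM in the 2D cultures of mice 2, 3, 4 and 5. In the 3D cultures of mice 1, 4, 5 and 7 it was 1.87, 7.89, 4.36 and 2.30 FPKM. The lowest 2D library thus stood far above the highest 3D library. The mean fell from 705 ± 324 to 4.10 ± 2.75 FPKM (SD, n = 4 each). The fitted difference was -7.16 ± 0.43 (SE) on the scale of log2(FPKM + 1) with an adjusted limma p of 1.4e-05. The fall was alike in the mice with both cultures, at -7.04 in mouse 4 and -7.02 in mouse 5. With the mouse as a block its adjusted limma p was 0.111. Stromal markers moved with S100a4 (11 of 12 lower in 3D, against 20.3% of all genes) and their part in this fall was not tested.

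S100a6, or calcyclin, which binds annexins and the ubiquitin ligase component CacyBP, was the most abundant member in every 2D library. Its level was 2413, 3406, 10614 and 1860 FPKM in 2D and 107, 527, 505 and 377 FPKM in 3D. The 2D culture of mouse 4 was more than any other, and quantile normalization had raised it from 5620 FPKM as deposited. All 2D libraries nevertheless lay above all 3D libraries. The mean fell from 4573 ± 4078 to 379 ± 193 FPKM, and the log2 difference was -3.46 ± 0.69 (SE) with an adjusted limma p of 0.00535. The difference was -4.33 in mouse 4 and -1.88 in mouse 5, and with the mouse as a block its adjusted limma p was 0.208. Without the 2D libraries of mice 3 and 4 the difference was -2.75 (adjusted limma p 0.0259), and without the 3D library of mouse 1, the lowest, it was -2.83 (adjusted limma p 0.00549).

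S100a10, also called p11, does not respond to calcium and joins Anxa2 in a tetramer at the plasma membrane. Its level was 377, 564, 606 and 344 FPKM in 2D and 101, 249, 213 and 129 FPKM in 3D. Both groups varied, but the lowest 2D library lay above the highest 3D library. The mean fell from 473 ± 131 to 173 ± 69.4 FPKM, with a log2 difference of -1.49 ± 0.33 (SE) and an adjusted limma p of 0.00822. Without the 2D libraries of mice 3 and 4, the ones with mesothelial markers, the difference was -1.13 with an adjusted limma p of 0.0704, and with the mouse as a block that p was 0.178.

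S100a11, or calgizzarin, a partner of Anxa1 that is known from keratinocyte growth control and membrane repair, was the abundant member that went the other way. Its normalized level was 236, 283, 284 and 222 FPKM in 2D and 361, 371, 609 and 586 FPKM in 3D, so that the groups did not overlap. The mean rose from 256 ± 32.2 to 482 ± 134 FPKM, with a log2 difference of 0.87 ± 0.21 (SE) and an adjusted limma p of 0.0117. This call depended on the scaling. As deposited, the levels were 290 to 326 FPKM in 2D and 298 to 468 FPKM in 3D and overlapped, and the difference was 0.28 with an adjusted limma p of 0.224. Scaling to the upper quartile gave 0.34 with an adjusted limma p of 0.155, and the mouse as a block gave an adjusted limma p of 0.302. Relative to quantile normalization, these scalings moved the median difference of the 772 genes averaging 100 FPKM or more by -0.49 and -0.44. A processed pseudogene, S100a11-ps, is annotated on chromosome 12, and how reads were divided between the copies is not known.

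S100a13, which takes part in the release of FGF1 and interleukin 1 alpha without a signal peptide, was lower in 3D. Its level was 33.8, 36.5, 63.1 and 33.7 FPKM in 2D and 1.75, 2.86, 3.04 and 3.22 FPKM in 3D. The 2D culture of mouse 4 was again the highest, and no libraries overlapped. The mean fell from 41.8 ± 14.3 to 2.72 ± 0.664 FPKM, with a log2 difference of -3.49 ± 0.24 (SE) and an adjusted limma p of 2.7e-05. With the mouse as a block the adjusted limma p was 0.114.

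S100a1, best known from heart and skeletal muscle where it acts on the ryanodine receptor, starts next to S100a13 and did not pass the test. Its level was 21.9, 103, 251 and 27.6 FPKM in 2D and 45.8, 19.8, 40.0 and 31.7 FPKM in 3D. High values were found in the 2D cultures of mice 3 and 4, the libraries with mesothelial markers, and the other 2D libraries lay among the 3D ones. The log2 difference was -0.93 (95% interval -2.69 to 0.83, adjusted limma p 0.367), and it had opposite signs in mouse 4 (-3.60) and mouse 5 (0.52). Without the 2D libraries of mice 3 and 4 it was 0.39 with an adjusted limma p of 0.394. The part of the mesothelial markers in this spread was not tested.

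S100a14, a member known from epithelia, was close to the detection floor in 2D and plentiful in 3D. Its level was 0.26, 0.22, 0.69 and 0.25 FPKM in 2D and 35.5, 86.0, 49.7 and 28.9 FPKM in 3D. At the estimated depth, the 2D values rest on about 2.83 to 12.8 fragments a library and the 3D values on 439 to 1170. As deposited, 3 fragments amount to 0.164 to 0.196 FPKM, and the 2D cultures of mice 2 and 5 stood at 0.162 and 0.163 FPKM. These estimates cover counting error only. The mean rose from 0.357 ± 0.224 to 50.0 ± 25.5 FPKM, with a log2 difference of 5.12 ± 0.33 (SE) and an adjusted limma p of 1.9e-05. It was 5.68 in mouse 4 and 5.34 in mouse 5, and the mouse as a block gave an adjusted limma p of 0.111. Epithelial markers moved with S100a14 (13 of 14 higher in 3D, against 21.2% of all genes). Esrp1, Elf3 and Crb3 were at 0 in every 2D library. The part of the epithelial markers in this rise was not tested.

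S100a16, a widely expressed member known from fat cell differentiation, neighbours S100a14 on its other side from S100a13. Its level was 46.2, 76.3, 135 and 57.5 FPKM in 2D and 71.0, 74.0, 60.5 and 57.3 FPKM in 3D. The groups overlapped and the 2D culture of mouse 4 alone lay above all 3D libraries by a wide margin. The log2 difference was -0.15 (95% interval -0.86 to 0.56, adjusted limma p 0.719). It was 0.15 without the 2D culture of mouse 4 and 0.33 without those of mice 3 and 4, with adjusted limma p of 0.546 and 0.128.

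S100a8 and S100a9, which together form calprotectin and mark myeloid cells, were at or near 0. S100a8 was at 0, 1.55, 4.04 and 1.01 FPKM in 2D and at 1.14, 0.64, 0 and 0.35 FPKM in 3D, with overlapping groups. Its log2 difference was -0.61 (95% interval -1.72 to 0.49, adjusted limma p 0.345), and 0.06 without the 2D cultures of mice 3 and 4 (adjusted limma p 0.916). S100a9 was listed at 0 in all 8 libraries, and a count of 0 allows up to 0.335 to 0.400 FPKM. Of 16 myeloid markers, Ly6g was not listed, Elane was at 0 in every library and 1 of the 14 tested passed (Cd68, higher in 3D). Lyz2 went the other way, at 0.227 to 18.7 FPKM in 2D and 0 in every 3D library, and did not pass (adjusted limma p 0.0894). The markers summed to 3.50 to 25.6 FPKM in 2D and 7.23 to 42.9 FPKM in 3D. Cd68, at 5.98 to 36.3 FPKM in 3D, was most of the 3D sum.

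**Figure D2:**
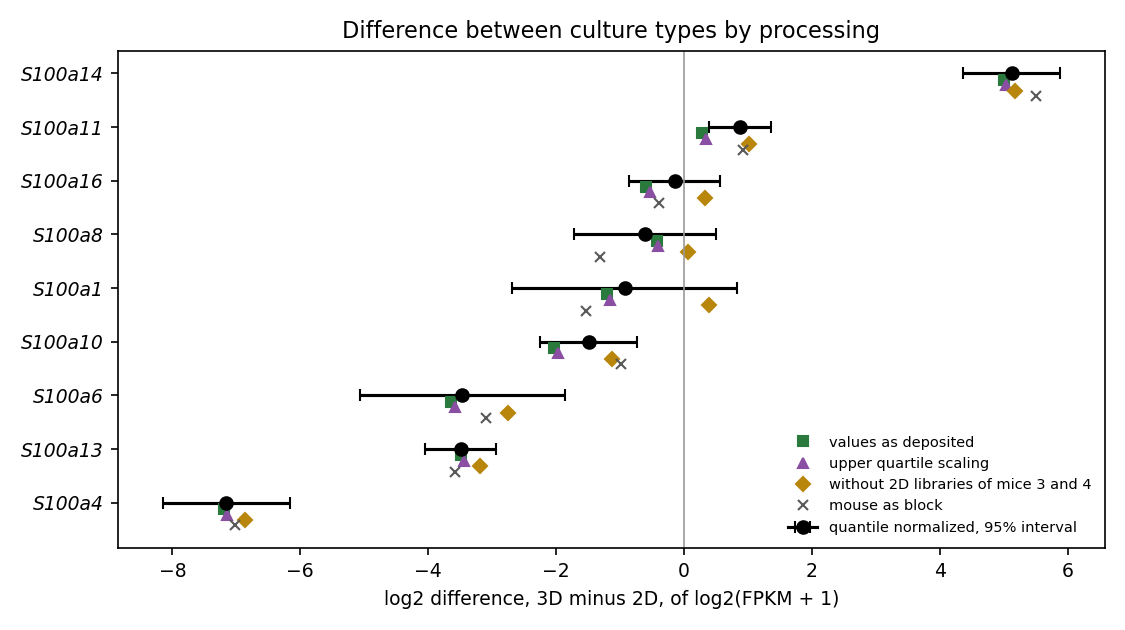
Fitted log2 difference of each tested member, 3D minus 2D, with its 95% interval from limma. Smaller symbols give the difference as deposited, with upper quartile scaling, without the 2D libraries of mice 3 and 4, and with the mouse as a block. The intervals of S100a1, S100a8 and S100a16 cross 0, and for each the symbol without the 2D libraries of mice 3 and 4 lies above 0.

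The order of the members changed between the culture types. In 2D the mean levels ran from S100a6 (4573 FPKM) through S100a4, S100a10, S100a11, S100a1, S100a16, S100a13 and S100a8 to S100a14 (0.357 FPKM). Among neighbours in that order, the ranges of libraries were separate only between S100a6 and S100a4, between S100a10 and S100a11, and between S100a13 and S100a8. In 3D the order was S100a11, S100a6, S100a10, S100a16, S100a14, S100a1, S100a4, S100a13 and S100a8. The ranges were separate only between S100a10 and S100a16, between S100a1 and S100a4, and between S100a13 and S100a8. The summed level of the family was 3240 to 13124 FPKM in 2D and 727 to 1485 FPKM in 3D. S100a6 made up 57.4% to 80.9% of it in 2D and 14.8% to 39.4% in 3D, and S100a11 made up 2.17% to 6.85% in 2D and 27.7% to 49.7% in 3D. The highest sum, the highest S100a6 share and the lowest S100a11 share of the 2D libraries were those of mouse 4. Quantile normalization had raised its S100a6 from 5620 to 10614 FPKM, and shares were not computed from the deposited values. In the other 2D libraries the sum was 3240 to 4976 FPKM, with 57.4% to 68.4% from S100a6 and 5.69% to 6.85% from S100a11. Within the groups, the 2D culture of mouse 4 was the highest 2D library for 9 of 9 members, as for 24.6% of all genes, and the 3D culture of mouse 1 was the lowest 3D library for 5 of 9, as for 38.2%.

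Log2 ratios of (FPKM + 1) were compared between the groups for members over their annexin partners, and for members whose genes are neighbours. Of 4 ratios, 2 were tested with a two-sided exact permutation test, which with 4 against 4 libraries cannot give a p below 0.0286. S100a10 over Anxa2 was -1.10 ± 0.29 in 2D and -0.67 ± 0.34 in 3D (SD, n = 4 each), and the exact p was 0.143 (0.143 after adjustment over the 2 tested ratios). S100a11 over Anxa1 was -1.85, -3.20, -3.78 and -2.03 in 2D and -0.50, -0.13, 1.06 and 1.03 in 3D. The groups did not overlap and differed by 3.08, with an exact permutation p of 0.0286 that became 0.0571 after adjustment and so did not pass. Over 2 tested ratios, the smallest p of this test becomes 0.0571 unless both ratios reach it. That it did not pass therefore says nothing about the size of the difference. The lowest values of S100a11 over Anxa1 were those of the 2D libraries of mice 3 and 4. Without these the difference was 2.34 (adjusted exact p 0.133). With 2 against 4 libraries the exact test cannot pass, whatever the values, so that this p says nothing about the ratio. The other two ratios were chosen after their values had been seen and are given as descriptions, with no test. S100a13 over S100a1 was 0.61, -1.47, -1.98 and 0.28 in 2D and -4.09, -2.43, -3.35 and -2.95 in 3D, a difference of -2.56, or of -3.58 without the 2D libraries of mice 3 and 4. S100a10 over S100a11, whose genes are 28.8 kb apart, was 0.68, 0.99, 1.09 and 0.63 in 2D and -1.82, -0.57, -1.51 and -2.17 in 3D, a difference of -2.37, or of -2.15 without those libraries.

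**Figure D3:**
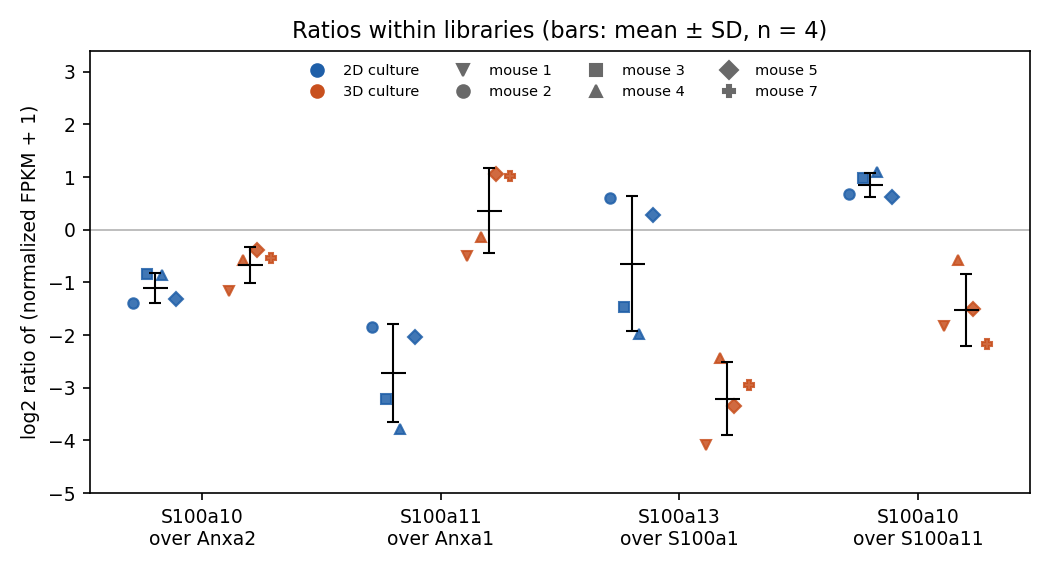
Log2 ratio of (FPKM + 1) for S100a10 over Anxa2, S100a11 over Anxa1, S100a13 over S100a1 and S100a10 over S100a11, with 1 point per library and a line at the group mean. The groups overlap for S100a10 over Anxa2 and are apart for the other ratios.

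Along the chromosome, members that rose, fell or did not pass the test lay next to each other. The members span 3054 kb, with 8 of them in the first 185 kb. From S100a1 onward, the order was S100a1 (no call), S100a13 (lower), S100a14 (higher), S100a16 (no call), S100a4 and S100a6 (lower), S100a8 (no call) and S100a9 (at 0). Only 12.5 kb separate the starts of S100a1 and S100a14. In the span and 100 kb to either side, 66 other genes were listed and 47 tested, of which 4 were higher, 3 lower and 40 without a call, so that 14.9% were called against 41.5% of all genes. Only 18 of the 47 averaged 1 FPKM or more in either group, so that most of these genes were near 0 in both. When the mouse was fitted as a block, 0 genes of the 47 passed in either direction. The 7 called genes, named after their values were seen, were Chtop, Sprr2a3, Sprr2g and Tchh among the higher and S100a3, Lce1h and Crct1 among the lower. Chtop, which lies 4.89 kb from the S100a1 start, had a difference of 0.60 (adjusted limma p 0.000734). Crct1 had the largest fall of these genes, -1.75 (adjusted limma p 0.0414).

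**Figure D4:**
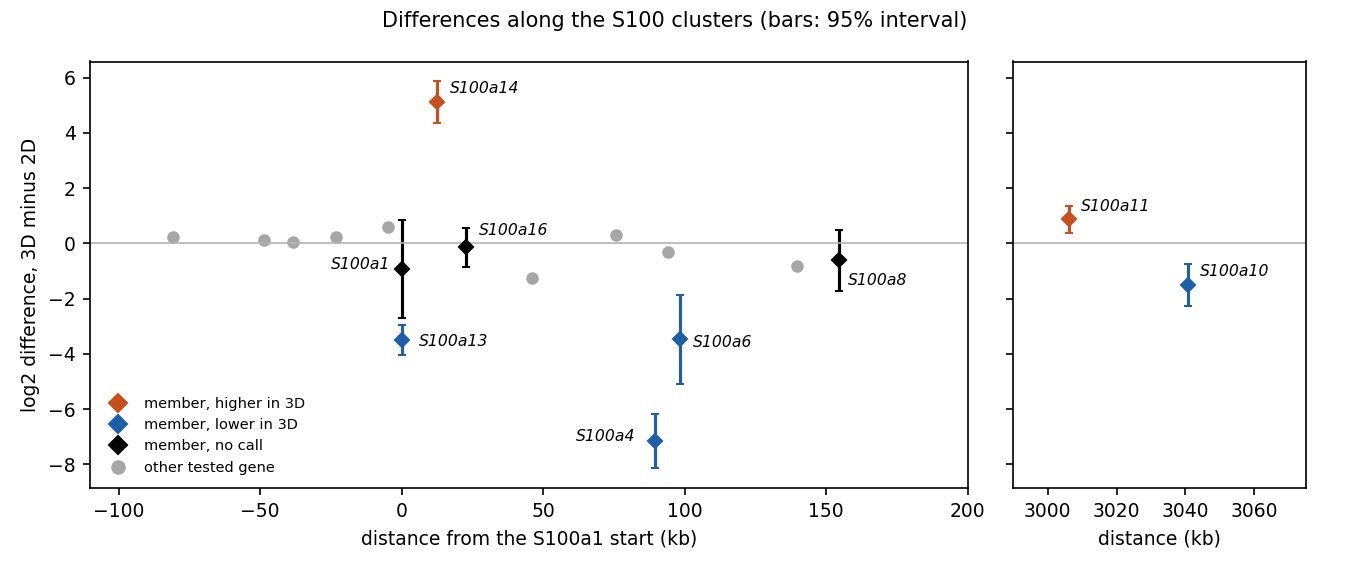
Fitted log2 difference, 3D minus 2D, of the members (diamonds with 95% intervals) and of the other tested genes nearby (grey points) against the distance of each gene's start from that of S100a1 in kb, with the stretch between the blocks left out. S100a14 at 5.12 and S100a4 at -7.16 are less than 80 kb apart, while the grey points near them lie between -1.25 and 0.60.

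Genes of the wider S100 system were taken from lists, and the fit was the same. Over all genes tested, 21.2% were higher and 20.3% lower, and the counts of each list are to be read beside these shares. Of 7 other S100 genes tested, 0 were higher and S100a3 alone was lower, at 1.61 to 4.75 FPKM in 2D and 0.128 to 0.992 FPKM in 3D (log2 difference -1.25, adjusted limma p 0.0185). That call was lost as deposited (adjusted limma p 0.0742), with upper quartile scaling (0.0838) and without the 2D libraries of mice 3 and 4 (0.0710). S100g, the vitamin D dependent calcium carrier of epithelia, was at 0 to 0.257 FPKM in 2D and 0.217 to 13.4 FPKM in 3D and did not pass. Only the 3D culture of mouse 1 stood at 13.4 FPKM, and the other 3D libraries were at 0.217 to 0.473 FPKM. Of 5 fused S100 genes of the skin barrier tested, Tchh was higher at 0.977 to 2.28 FPKM in 3D against 0.0670 to 0.344 FPKM in 2D, a log2 difference of 1.05 (adjusted limma p 0.00183).

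Among the annexins, membrane proteins to which several S100 dimers bind, 3 of 11 were higher, 5 lower and 3 without a call. Of all genes tested, 41.5% were called. Anxa2, the partner of S100a10, fell with it from 856 to 1100 FPKM in 2D to 188 to 369 FPKM in 3D (log2 difference -1.93, adjusted limma p 0.000285). Anxa1, the partner of S100a11, fell from 849, 2615, 3905 and 910 FPKM in 2D to 287 to 510 FPKM in 3D (-2.20, adjusted limma p 0.0119). Its high values were again in the 2D libraries of mice 3 and 4, without which the difference was -1.32 (adjusted limma p 0.0126). Anxa8 had the largest fall (-2.67, and -1.83 without the 2D libraries of mice 3 and 4), and Anxa5 and Anxa6 fell by 0.86 each. Anxa9 (4.33), Anxa11 (2.77) and Anxa4 (1.28) were higher, and Anxa11, which binds S100a6, stood at 14.5 to 20.6 FPKM in 2D and 90.3 to 226 FPKM in 3D.

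Of 9 receptors and surface partners of released S100 proteins, 2 were higher, 3 lower and 4 without a call, where 41.5% of all genes were called. Ager, which encodes RAGE, and Tlr4 did not pass, at 0.767 to 2.18 and 7.11 to 13.5 FPKM in 2D and 0.453 to 1.40 and 8.08 to 15.7 FPKM in 3D. The TLR4 cofactors went in opposite directions. Cd14 was higher (4.30, adjusted limma p 2.4e-05) and Ly96, which encodes MD-2, was lower (-1.10, adjusted limma p 0.0106, and 0.0808 without the 2D libraries of mice 3 and 4). Mcam (-2.14, and -2.99 without those libraries) and Nptn (-0.63), receptors of the S100a8 and S100a9 proteins, were lower. Bsg, a further one, was higher at 0.90 (adjusted limma p 0.00911), a call lost as deposited (0.268) and with upper quartile scaling (0.213).

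Of 18 targets and cargo proteins, 4 were higher, 5 lower and 9 without a call, where 41.5% of all genes were called. Myh9, the heavy chain of the myosin that S100a4 binds, fell by 0.93 from 450 to 714 FPKM in 2D to 250 to 421 FPKM in 3D, against -7.16 for S100a4. Cacybp, which binds S100a6, fell by 0.60, and Trp53, a target of S100a4, fell by 0.53. Fgf1, whose release involves S100a13, was at 0.121 to 1.15 FPKM in 2D and 3.44 to 41.4 FPKM in 3D (2.50, adjusted limma p 0.0243), in the direction opposite to S100a13. Without the 2D library of mouse 2 or mouse 5 that p was 0.0609 or 0.0587, and without those of mice 3 and 4 it was 0.0536. Leaving out the 3D culture of mouse 1, the one at 41.4 FPKM, gave a difference of 1.76 (adjusted limma p 0.00300). Trpv6, the calcium channel carried by S100a10 and Anxa2, was at 4.37 to 27.2 FPKM in 3D and at no more than 0.00504 FPKM in 2D (adjusted limma p 0.000515). Tgm1, which crosslinks S100a11 into the skin envelope, was higher at 0.62 (adjusted limma p 0.00867, and 0.0534 without the 2D libraries of mice 3 and 4).

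Of 25 other EF-hand proteins tested, 5 were higher, 8 lower and 12 without a call, where 41.5% of all genes were called. The largest rises were those of Gca (1.42), Nucb1 (0.77) and Capn1 (0.63). The rise of Nucb1 was not called as deposited (adjusted limma p 0.0594). That of Capn1 was lost as deposited (0.257) and with upper quartile scaling (0.168). It was also lost without the 2D library of mouse 2 (0.0573) or mouse 4 (0.0615), without the 3D library of mouse 4 (0.0644), and without the 2D libraries of mice 3 and 4 (0.118). Rcn3, a calcium-binding protein of the endoplasmic reticulum, was at 135 to 197 FPKM in 2D and listed at 0 in every 3D library, and Rcn1 (-2.89) and Capn2 (-2.46) were lower. The median difference was 0.01 in this list and 0.00 over all genes.

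**Figure D5:**
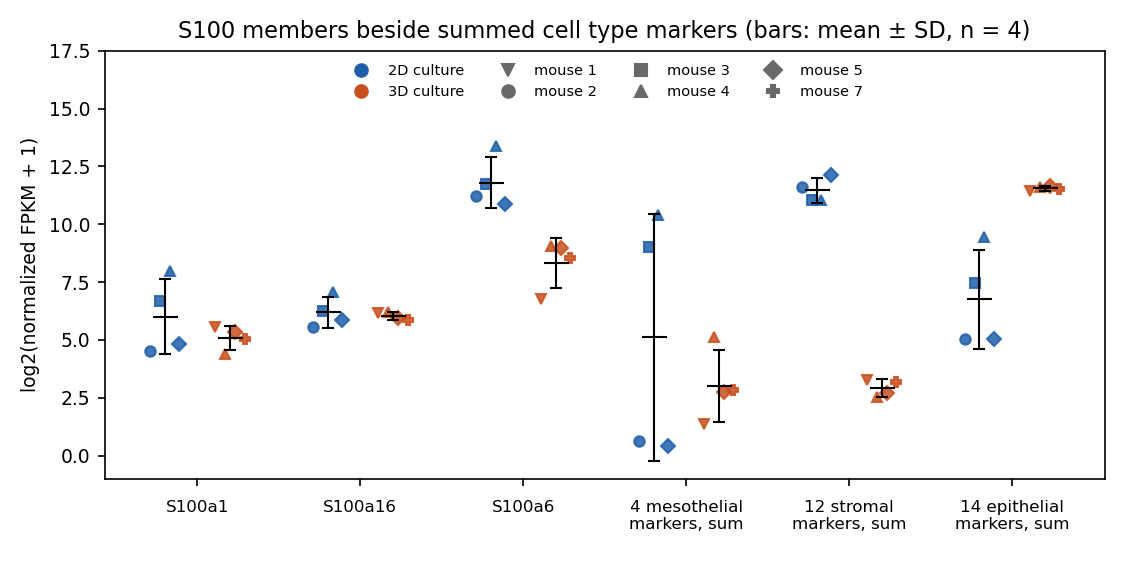
Normalized levels, as log2(FPKM + 1), of S100a1, S100a16 and S100a6 and of the summed mesothelial, stromal and epithelial markers, with 1 point per library and the group mean ± SD. Stromal markers sum to 2098 to 4530 FPKM in 2D and at most 8.71 FPKM in 3D. Epithelial markers sum to 2750 to 3218 FPKM in 3D, and mesothelial markers are high in the 2D libraries of mice 3 and 4.

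The genes whose pattern over the 8 libraries was nearest to that of S100a14, by Euclidean distance between log2 values centred on each gene's mean, were Gabrp (0.83), Prss22 (0.83) and Fermt1 (1.07). Each of them was at 0 to 0.337 FPKM in 2D and between 13.1 and 64.5 FPKM in 3D. Nearest to S100a4 were Igfbp6 (1.27), Ccdc80 (1.57) and Pcolce (1.73), at 101 to 329 FPKM in 2D and at most 0.441 FPKM in 3D. These distances describe 8 libraries and carry no test.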

How the data were processed

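Total RNA was depleted of ribosomal RNA and made into directional libraries that were sequenced as read pairs. The authors used FASTX_Trimmer and BBMap for trimming and TopHat for mapping (mm10, per the submitters' processing notes), and computed the deposited FPKM values with Cufflinks. The annotation used is not given in the sources used here. The quantile normalization that the study names as its next step is not in the deposited values, whose upper quartiles ranged from 10.7 to 11.4 FPKM.

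From these values, 18862 genes above 0 in at least 1 library were quantile normalized, converted to log2(FPKM + 1) and compared between 4 3D and 4 2D libraries with limma 3.58.1 in R 4.3.3 (intensity trend, no covariates). Called genes had an adjusted p below 0.05 (Benjamini-Hochberg over all genes). Fold changes on this scale are understated for low genes. The p-values measure the spread between these libraries. Ratios were tested by exact permutation in SciPy 1.17.1, apart from those chosen on their values. A planned ratio of S100a9 over S100a8 was not computed, since S100a9 was at 0 throughout. The depth came from low values among 875 genes of at least 3000 nt, with 113 to 137 values used per library. Of these values, 70.2% to 81.2% lay within 0.15 of a whole fragment. The depth was chosen for closeness to whole fragments, so that this share is no independent check. Floors are the FPKM of 3 fragments over the annotated transcript, cover counting error only and are too low for short genes. Positions are from GENCODE M21, which matched 23310 listed genes (95.7%).

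Mice 4 and 5 pair the groups by the labels. Over 12583 genes, deviations of their 2D and 3D libraries from the group means correlated at -0.053 and -0.113. The alternatives were the values as deposited, upper quartile scaling, only genes averaging 1 FPKM or more, a pseudocount of 0.1, no trend, the mouse as a block, only mice 4 and 5, genes under 300 nt left out and each library left out. Leaving out the 2D libraries of mice 3 and 4, also for the ratios, was chosen after seeing the data. Members and lists were chosen with earlier results of these data known. All members are named, as may be the annexins, receptors, targets and other S100 genes. In each list the called genes with the 3 largest rises and falls are named first, and 3 genes nearest in pattern are named for the members with the largest rise and fall. On simulated data of this layout, the limma model called 170 of 200 genes changed by 2 on the log2 scale and 8 unchanged ones, and 0 of the 200 with the block. These data were drawn without a mouse effect, and only 200 of the 18862 genes were changed. For the adipocyte and endothelial markers, the summed level was at most 0.175 and 6.74 FPKM in any library, and 0 of 3 and 0 of 5 passed the test. Of the mesothelial markers, 0 of 4 passed.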

Additional observations from a re-analysis of the deposited data

Results flagged for a closer look

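In 76 groups of 4 libraries, 6 had 1 library whose gap to the nearest of the others exceeded Dixon's critical share of the range. Chance gives about 1 group in 20 where values are normally spread, which does not hold for groups with values at 0. For S100a13 in 2D, the library of mouse 4 stood at 63.1 FPKM and the other libraries at 33.7 to 36.5 FPKM. For S100a14 in 2D, the library of mouse 4 stood at 0.692 FPKM and the others at 0.222 to 0.261 FPKM. Both calls held without that library. Anxa11 was lowest in the 2D library of mouse 2, at 14.5 FPKM against 19.6 to 20.6 FPKM, and so was Nptn, at 93.5 FPKM against 119 to 125 FPKM. Trpv6 was detected in the 2D library of mouse 4 alone (0.00504 FPKM), with 0 in the other 2D libraries. Any value above 0 would have been flagged there, so that this flag carries no weight. Fgf1 reached 41.4 FPKM in the 3D culture of mouse 1 against 3.44 to 4.87 FPKM elsewhere in 3D.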

How the results depend on the processing

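The replicate block of the mouse, which uses 1 residual degree of freedom, left 0 members called higher and 0 lower, and likewise 0 in each direction of all genes, of the related lists and of the genes near the members. With mice 4 and 5 alone, 1 of 9 members was called higher and 2 lower. The counts were 1788 and 1432 of 18081 genes tested and 7 and 9 of 70 genes of the related lists. As deposited or with upper quartile scaling, 1 of 9 members was called higher, against 4279 and 4521 of 18862 genes. Without the 2D libraries of mice 3 and 4, S100a1, S100a8 and S100a16 changed sign to 0.39, 0.058 and 0.33, and the difference of S100a16 ranged from -0.35 to 0.15 with each library left out, above 0 without the 2D library of mouse 4. None of these was called. The causes were not tested. With each library left out in turn, the members called numbered 2 higher and 4 lower throughout. The difference of S100a11 over Anxa1 then ranged from 2.76 to 3.42, that of S100a13 over S100a1 from -2.98 to -2.11 and that of S100a10 over S100a11 from -2.66 to -2.16. Of 934 values recomputed for 58 results, 817 kept their direction and side of the threshold (counts stayed within 1.5 times, untested ratios within 1 SD), 69 lost the call, 4 changed sign and 44 counts moved by more. Depth limits S100a8, S100a9 and, in 2D, S100a14. At the estimated depth, S100a8 rests on 0 to 31.8 fragments a library and S100a14 in 2D on 2.83 to 12.8.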
